A study of Mus musculus with 12 samples.

Results

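The genes described here are 9 complement components and receptors, C1qa, C1qb, C1qc, C3, Cfb, Cfp, C3ar1, C5ar1 and Vsig4, measured in alveolar macrophages. They were chosen by gene symbol, and all 9 were found among the 55291 genes of the deposited table. All 9 were among the 19633 genes kept for testing, and none of them had mice at a shared minimum value. Alveolar macrophages are the resident phagocytes of the airspaces, isolated here by flow cytometry from lungs of female C57BL/6NJ mice aged 8 to 11 weeks. One group of 6 mice had breathed 0.8 ppm ozone and the other group of 6 filtered air, with 4 daily sessions of 4 h each, and cells were collected 3 days after the last one. The labels name no transgene or deletion in either group. Cells were sorted in 2 batches of 3 ozone and 3 filtered-air mice each.

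Complement is a cascade of plasma and tissue proteins that marks targets for uptake and releases inflammatory peptides. The classical pathway starts with C1q, which is made largely by macrophages and related cells and is built from the A, B and C chains. All pathways meet at C3, whose cleavage yields C3b, which coats targets, and the anaphylatoxin C3a. The alternative pathway amplifies C3 cleavage with factor B (Cfb) and is stabilised by properdin (Cfp). C3ar1 and C5ar1 are receptors of the anaphylatoxins C3a and C5a, and Vsig4 binds C3b and its product iC3b on the macrophage surface.

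Each value is a variance-stabilized, log2-scale expression from which the gene's filtered-air mean has been subtracted, so that this mean is 0. The level of a gene is not kept, so the genes cannot be ordered by abundance, and in genes with low counts the differences come out smaller than the true change. Total reads per mouse are not given; between 19475 and 20438 genes lay above their shared minimum in ozone mice and between 19719 and 20144 in filtered-air mice. RNA integrity numbers were 9.2 to 9.7 and 8.9 to 9.7. All 16 alveolar macrophage markers found, among them Siglecf, Marco, Pparg and Fabp4, lay above the minimum in all 12 mice. So did all 13 interstitial macrophage, all 11 lymphocyte and all 13 epithelial markers listed, as did 9 of 12 neutrophil markers, among them S100a8 and S100a9, whereas Ly6g, Ngp and Camp did not reach the filter. Of these 9, Cxcr2, a chemokine receptor of neutrophils, was higher after ozone by 0.79 with separate groups (limma adjusted p = 0.000451). The other 8 were not called, with a median of -0.015 for the list, and 4.25% of all genes were called. In bulk RNA of sorted cells, fewer cells of a type and less RNA per cell cannot be told apart.

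C3 and Cfp were higher after ozone, and the other 7 members did not pass the test. C3 rose by 0.64 on the log2 scale and Cfp by 0.17, with no overlap between the groups in either gene. The count of 2 of 9 members with an adjusted p under 0.05 (limma) compares with 4.25% of all genes tested; both were higher, against 2.41% of all genes, and 0 members were lower, against 1.84%. Separate groups were seen in 3.53% of all genes. The difference was above 0 in 9 of 9 members, against 48% of all genes, with a median of 0.17 against -0.0033 over all genes. The direction was the same in both sort batches in 6 of the 9 members. The C1q chains and C3ar1 vary together and so do not count as independent members in these figures.

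**Figure D1:**
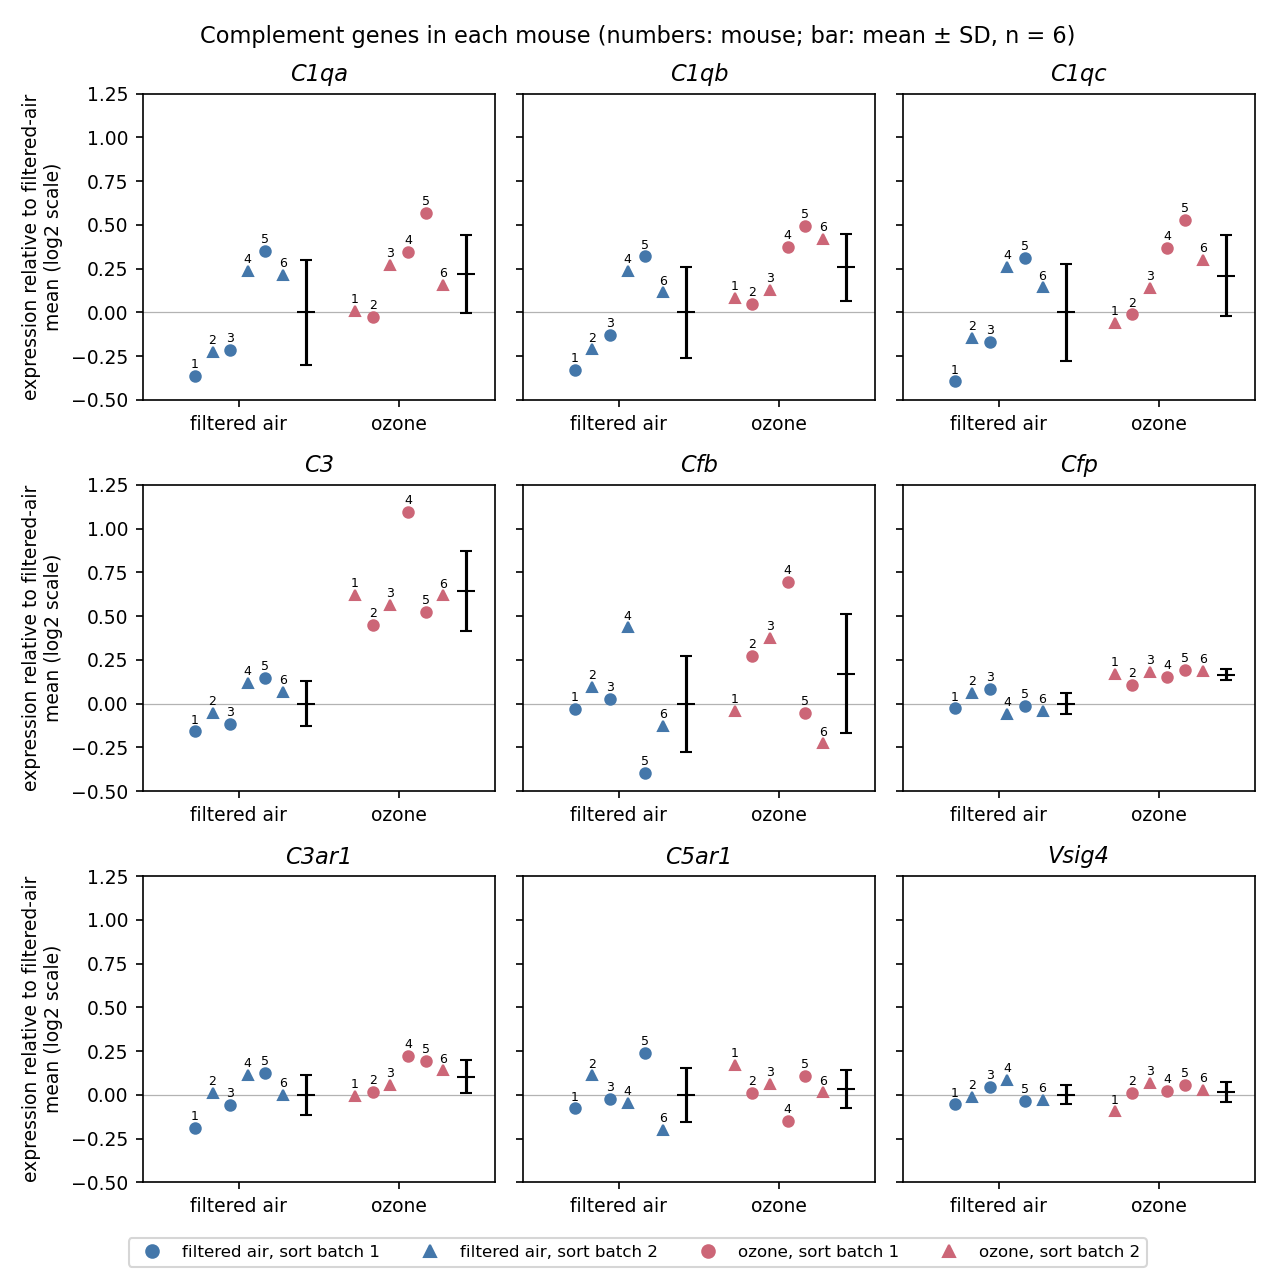
Expression of each complement gene in each mouse, on the y axis as the log2-scale value relative to the filtered-air mean, by group on the x axis; digits number the mice, symbols give the sort batch, and bars are mean ± SD (n = 6). The ozone mice lie above every filtered-air mouse in C3 and Cfp, whereas the C1q chains span a wide range in both groups.

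C3, the central component, lies on the minus strand at chr17:57203970-57228136 (GRCm38) and ranked 9 by size of rise among the 19633 genes. Filtered-air mice had C3 values from -0.16 to 0.14 with a median of 0.0070, and ozone mice from 0.45 to 1.09 with a median of 0.59. Every ozone mouse was therefore above every filtered-air mouse, and ozone mouse 4 stood well above the other 5. The difference was 0.64 (SE 0.094, 95% interval 0.44 to 0.85, limma adjusted p = 0.00193), from 0 ± 0.13 to 0.64 ± 0.23 (SD, n = 6 each). It was 0.73 in sort batch 1 and 0.56 in sort batch 2, where 3 mice against 3 gave adjusted p-values of 0.102 and 0.0595 in limma. Without ozone mouse 4 the rise was 0.54 (limma adjusted p = 0.000453). With a variance trend in the fit, limma gave the same rise with an SE of 0.16 and an adjusted p of 0.0445, near the threshold. Alveolar type 2 cells also make C3, and the list of epithelial markers ran from -0.14 to 0.090 in ozone mice and from -0.18 to 0.27 in filtered-air mice. Of its 13 genes 8 were lower and 5 higher, and 1 was called, where 4.25% of all genes were. This gene, Epcam, an epithelial adhesion molecule, fell by 0.55 with separate groups (limma adjusted p = 0.00620). The surfactant gene Sftpc differed by 0.030 (95% interval -0.28 to 0.34, limma adjusted p = 0.951). Residuals of C3 from the group and batch means correlated with those of the epithelial list with r = 0.355 over 12 mice. For the interstitial macrophage, lymphocyte, dendritic cell and monocyte lists r was 0.63, 0.55, 0.49 and 0.45, and the part of other cells in the C3 values was not tested.

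Cfp encodes properdin, the stabiliser of the alternative pathway convertase, and lies at chrX:20925454-20931555. Filtered-air mice had Cfp values from -0.060 to 0.086 with a median of -0.021, and ozone mice from 0.10 to 0.19 with a median of 0.18. Its shift was small and even: the lowest ozone mouse, mouse 2, was just above the highest filtered-air mouse, mouse 3. The difference was 0.17 (SE 0.037, 95% interval 0.087 to 0.24, limma adjusted p = 0.0197). The SD was 0.059 among filtered-air mice and 0.033 among ozone mice (n = 6 each). Within sort batches it was 0.14 in batch 1 and 0.19 in batch 2, with 3 mice against 3 and adjusted p-values of 0.391 and 0.326 in limma. The call was near the threshold, since limma gave an adjusted p of 0.0519 without filtered-air mouse 1 and of 0.0506 without ozone mouse 5, and 0.140 after quantile normalization.

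The upstream sequences of the called genes are shown, with that of C1qb, a macrophage-made component that did not pass the test, for comparison. Each is the 250 bases before the RefSeq start site (GRCm38.p6), read 5′ to 3′ on the minus strand, at chr17:57228137-57228386 for C3, chrX:20931556-20931805 for Cfp and chr4:136886201-136886450 for C1qb. Capitals mark matches, on either strand, to any of the motifs searched, namely TTNNGNAA (C/EBP), GGG and CC separated by any 5 bases (NF-kB), TGANTCA (AP-1), GAGGAA (PU.1) and a pair of GAAA separated by any 2 bases (interferon-stimulated response element).
C3: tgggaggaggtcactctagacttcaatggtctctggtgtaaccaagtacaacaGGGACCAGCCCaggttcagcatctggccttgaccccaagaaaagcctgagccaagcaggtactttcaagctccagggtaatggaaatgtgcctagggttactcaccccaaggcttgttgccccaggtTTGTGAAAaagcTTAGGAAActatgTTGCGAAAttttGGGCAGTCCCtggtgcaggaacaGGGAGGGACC
Cfp: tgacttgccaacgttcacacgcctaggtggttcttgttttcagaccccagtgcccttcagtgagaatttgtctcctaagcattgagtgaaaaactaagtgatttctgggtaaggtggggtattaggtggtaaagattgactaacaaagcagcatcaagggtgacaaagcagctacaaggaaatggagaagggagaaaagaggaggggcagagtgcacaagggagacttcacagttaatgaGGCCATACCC
C1qb: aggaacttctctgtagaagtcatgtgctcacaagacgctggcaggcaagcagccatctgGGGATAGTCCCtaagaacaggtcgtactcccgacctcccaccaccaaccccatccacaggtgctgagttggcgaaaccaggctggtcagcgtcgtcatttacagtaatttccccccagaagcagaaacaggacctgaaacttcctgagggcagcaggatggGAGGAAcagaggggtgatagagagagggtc
The C3 sequence held 3 matches to the C/EBP letters, starting at -70, -58 and -45 from the start site, and 4 to the NF-kB letters, of which those at -197 and -196 overlap. Cfp held 0 C/EBP matches and 1 NF-kB match, at -10. C1qb held 0 C/EBP matches, 2 overlapping NF-kB matches and 1 PU.1 match, at -30. Among the other uncalled members searched, C1qc, C5ar1 and Vsig4 each held 1 C/EBP match and C3ar1 held 0. NF-kB matches numbered 2, overlapping, in C1qc, 1 in C3ar1 and 0 in C5ar1 and Vsig4. C3ar1 also held 1 AP-1 match, C1qc 1 PU.1 match and Vsig4 2 PU.1 matches. Of 32851 upstream sequences of this length, 36.8% held the C/EBP letters, 45.8% the NF-kB letters, 23.3% the PU.1 letters, 6.75% the AP-1 letters and 2.98% the interferon element. A match is a description of the letters, not a binding site. RefSeq sequences were found for 7 of the 9 members.

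Cfb encodes the protease of the alternative pathway convertase, and its values spread widely in both groups. Filtered-air mice ranged from -0.40 to 0.43 with a median of -0.0018, and ozone mice from -0.23 to 0.69 with a median of 0.11. The groups overlapped, with 1 ozone mouse, mouse 4, above every filtered-air mouse. The difference in Cfb was 0.17 (SE 0.15, 95% interval -0.16 to 0.50, limma adjusted p = 0.657). It was 0.053 without ozone mouse 4 and 0.082 without filtered-air mouse 5, and 0.27 without filtered-air mouse 4 and 0.26 without ozone mouse 6. It was 0.44 in sort batch 1 and -0.098 in sort batch 2, and limma's interaction test of the batches gave an unadjusted p of 0.0780 (adjusted p = 1.00).

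The Cfb gene lies at chr17:34856374-34862518, and 85 bases separate it from C2, which encodes the matching protease of the classical pathway and lies at chr17:34862604-34898265 on the same strand. Residuals of Cfb from the group and batch means correlated with those of C2 (Pearson r = 0.87, 12 mice) and of C4b (r = 0.74), but not with those of C4a (r = -0.0088). Whether reads were shared between C2 and Cfb was not tested, and C4b has a close relative, C4a, with which it can share reads. The 3 genes most like Cfb in residuals, among 17168 genes above the minimum in all mice, were Mamld1 (r = 0.94), Stac2 (r = 0.92) and Csf1r (r = 0.91). Csf1r, the CSF-1 receptor, rose by 0.39 after ozone (SE 0.085, limma adjusted p = 0.0181).

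The C1q chains were higher on average after ozone, but none passed the test after adjustment over all genes. C1qb, C1qc and C1qa lie in this order at chr4:136880129-136886187, chr4:136889804-136893065 and chr4:136895917-136898803, all on the minus strand, within 18675 bases. In filtered air C1qa ranged from -0.36 to 0.35 with a median of 0.00035, and after ozone from -0.027 to 0.57 with a median of 0.21. For C1qb the ranges were -0.33 to 0.32 with a median of -0.0083, and 0.046 to 0.49 with a median of 0.25. For C1qc they were -0.39 to 0.31 with a median of -0.0024, and -0.061 to 0.53 with a median of 0.22. The groups overlapped in all 3 chains. Filtered-air mouse 1 was the lowest and filtered-air mouse 5 the highest of its group in each chain, and ozone mouse 5 was the highest ozone mouse in each.

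The difference between the groups was 0.22 for C1qa (95% interval -0.061 to 0.50, limma adjusted p = 0.450). It was 0.26 for C1qb (95% interval 0.011 to 0.50, adjusted p = 0.273) and 0.21 for C1qc (95% interval -0.061 to 0.48, adjusted p = 0.454), again in limma. Without filtered-air mouse 1 it was 0.14 for C1qa and 0.12 for C1qc, and without ozone mouse 5 it was 0.14 for both. Only C1qb among the uncalled members had an unadjusted p under 0.05, at 0.0417, as had 16.7% of all genes. In sort batch 1 the differences were 0.37, 0.35 and 0.38 for C1qa, C1qb and C1qc, and in sort batch 2 they were 0.071, 0.16 and 0.041. The chains thus differed more in the first batch than in the second, but limma's interaction test of the batches had an adjusted p of 1.00 for each.

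**Figure D2:**
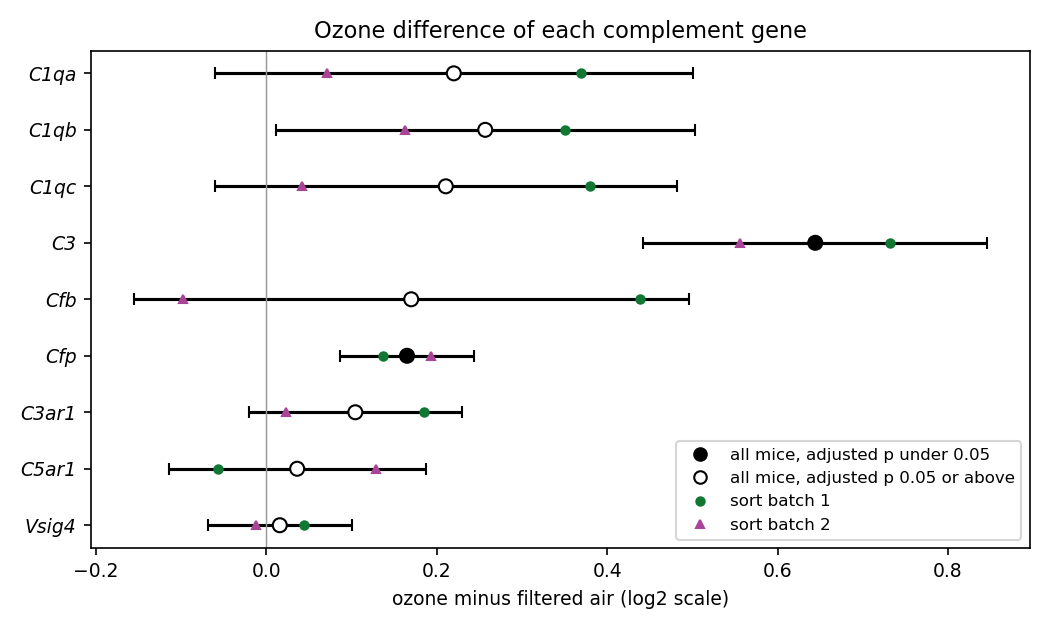
Ozone minus filtered-air difference of each complement gene on the log2 scale, with its 95% interval from limma (n = 6 mice per group); filled circles have an adjusted p under 0.05, and small symbols give each sort batch alone. C3 stands apart at 0.64, Cfp has a narrow interval from 0.087 to 0.24, and C5ar1, Cfb and Vsig4 have opposite signs in the 2 batches.

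The anaphylatoxin receptors and Vsig4 showed no difference that passed the test. C3ar1 lies at chr6:122847138-122856161 and ranged from -0.19 to 0.13 in filtered air (median 0.0051) and from -0.0051 to 0.22 after ozone (median 0.098). Although 3 ozone mice were above every filtered-air mouse, the others lay within the filtered-air range, and the difference was 0.10 (95% interval -0.021 to 0.23, limma adjusted p = 0.412). It was 0.19 in sort batch 1, 0.023 in sort batch 2 and 0.062 without filtered-air mouse 1. C5ar1 lies at chr7:16246743-16259540 and ranged from -0.20 to 0.24 in filtered air (median -0.036) and from -0.15 to 0.17 after ozone (median 0.038). All ozone mice lay within the filtered-air range, and the difference in C5ar1 was 0.036 (95% interval -0.11 to 0.19, limma adjusted p = 0.865), with -0.056 in sort batch 1 and 0.13 in sort batch 2.

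Vsig4, the receptor for C3b and iC3b, lies at chrX:96247203-96293438 and had the narrowest range in filtered air, from -0.054 to 0.084 (median -0.021). After ozone it ranged from -0.095 to 0.070 (median 0.027), with ozone mouse 1 below the other mice of both groups. The difference in Vsig4 was 0.016 (95% interval -0.069 to 0.10, limma adjusted p = 0.898), and was 0.044 in sort batch 1 and -0.012 in sort batch 2. Its interval excludes a rise as large as that of C3 on this scale. In limma's interaction test of exposure and batch, 0 genes had an adjusted p under 0.05 and 2.6% an unadjusted p under 0.05, and the smallest unadjusted p of a member was 0.0780, for Cfb.

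Among mice of the same exposure, the C1q chains and C3ar1 rose and fell together. After the group and batch means were removed, Pearson's r over 12 mice was 0.91 between C1qa and C1qb, 0.96 between C1qa and C1qc and 0.97 between C1qb and C1qc. C3ar1, on another chromosome, had an r of 0.84 with C1qa, 0.90 with C1qb and 0.94 with C1qc. C3 followed the chains in filtered air, with r = 0.98 with C1qa over 6 mice, and less so after ozone, with r = 0.25; this contrast was not tested. Cfp, which was also higher after ozone, had an r of -0.23 with C3, so these called genes did not vary together among mice. These are descriptions over libraries that share 2 sort batches.

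**Figure D3:**
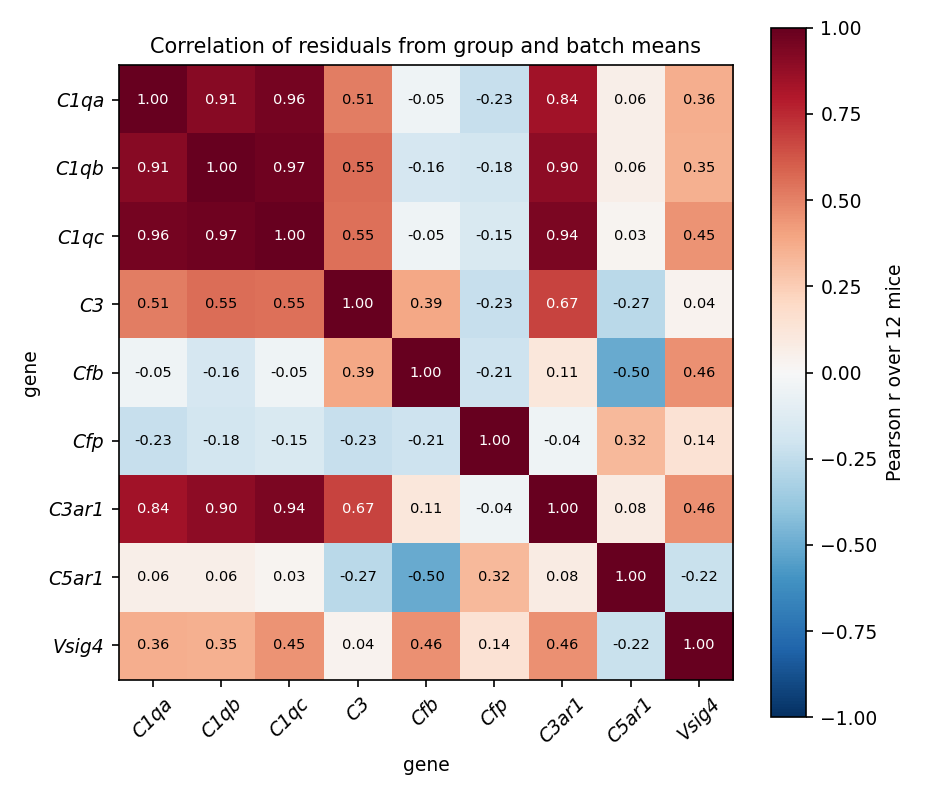
Pearson correlation over 12 mice between the complement genes named on both axes, computed on residuals from the group and batch means; colour and printed numbers give r. The C1q chains and C3ar1 form a block with values from 0.84 to 0.97, and Cfp lies between -0.23 and 0.32 with every other gene.

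Transcripts of other lung immune cells varied with the C1q chains. The genes most like C1qc in residuals were Cd3g (r = 0.98), C1qb and Trac (r = 0.96), of which Cd3g and Trac are parts of the T cell receptor complex. Those most like C1qb were Ifi211 (r = 0.98), C1qc and Cd3g (r = 0.97), and those most like C1qa were Gm4759 (r = 0.97), Jaml (r = 0.96) and Cd3g (r = 0.96). Cd3g did not differ between the groups beyond the spread (difference 0.030, 95% interval -0.22 to 0.28, limma adjusted p = 0.942). C1q is also made by interstitial macrophages and some dendritic cells, so whole marker lists were set beside the mean of the chains. The mean residual of the 3 chains had an r of 0.89 with that of 13 interstitial macrophage markers, 0.90 with 8 dendritic cell markers and 0.82 with 11 lymphocyte markers. For 9 monocyte markers it was 0.68, and for 16 alveolar macrophage markers -0.19. Single interstitial markers differed, from Cx3cr1 (r = 0.84) to Ms4a7 (r = -0.67), a pair chosen after their values were seen. Dendritic cell markers also differed, with r = 0.90 for Flt3 and 0.22 for Clec9a, as did lymphocyte markers, with r = 0.98 for Cd3g and 0.36 for Cd4. These genes too were chosen after their values were seen.

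Of the interstitial, dendritic, lymphocyte and monocyte lists together, 1 gene was called, where 4.25% of all genes were. The mean level of the interstitial list ran from -0.13 to 0.15 in filtered air and from -0.036 to 0.12 after ozone, and 1 of its 13 genes, Csf1r, was called, higher. The dendritic list ran from -0.18 to 0.20 and from -0.20 to 0.087, and the lymphocyte list from -0.25 to 0.32 and from -0.27 to 0.0040, with 0 genes called in limma in either, as in the monocyte list, which ran from -0.15 to 0.32 and from -0.20 to 0.023. Median differences were 0.0042 for interstitial, -0.080 for dendritic, -0.16 for lymphocyte and -0.11 for monocyte markers, against -0.0033 over all genes. Of the 16 alveolar macrophage markers 4 were called in limma, against 4.25% of all genes, with Chil3 (0.25, adjusted p = 0.0320) and Car4 (0.32, adjusted p = 0.0461) higher and Ear1 (-0.28, adjusted p = 0.0358) and Krt79 (-0.35, adjusted p = 0.0177) lower. The mean of that list ran from -0.070 to 0.095 in filtered air and from -0.067 to 0.15 after ozone. The part of other cells in the C1q values was not tested.

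**Figure D4:**
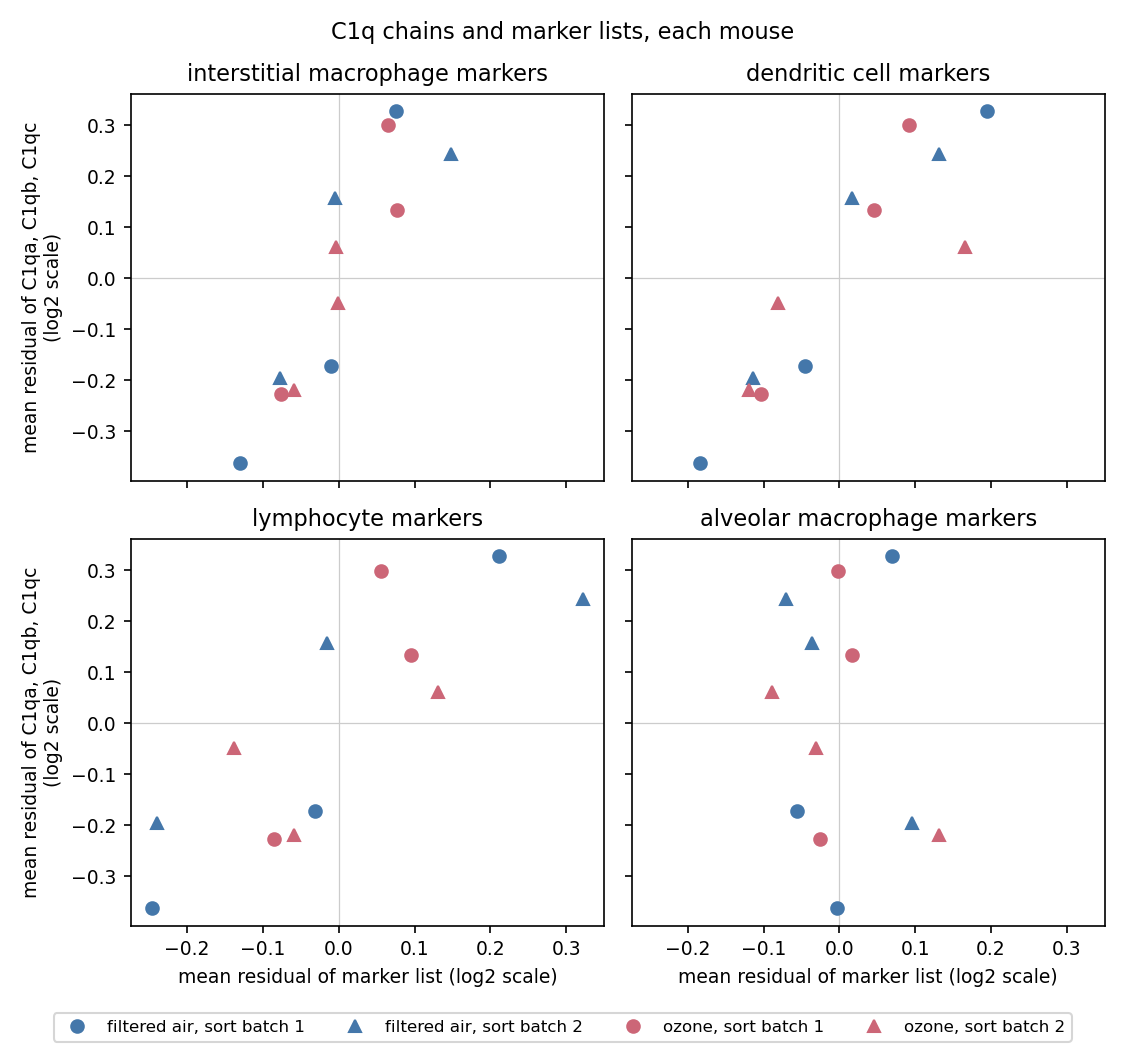
Mean residual of the 3 C1q chains (y axis) against the mean residual of each marker list (x axis), both on the log2 scale after removal of group and batch means; each point is a mouse, coloured by exposure and shaped by sort batch. Mice high in C1q are high in the mean of the interstitial macrophage, dendritic cell and lymphocyte lists (r = 0.89, 0.90 and 0.82), and not in that of the alveolar macrophage list (r = -0.19). Single markers within a list differ.

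For the other members the 3 nearest genes were not complement genes. The genes most like C3 in residuals were Fam184a (r = 0.95), Adhfe1 (r = 0.94) and Matk (r = 0.91), and those most like Cfp were E130311K13Rik (r = 0.89), Dlk2 (r = 0.87) and Hcfc1 (r = 0.87). C3ar1 was followed most closely by Tmem246 (r = 0.96), Kmo (r = 0.95) and Axin2 (r = 0.94), with C1qc next (r = 0.94). For C5ar1 they were Slc16a10 (r = 0.95), Plekhh3 (r = 0.94) and Trdmt1 (r = 0.93), and for Vsig4 Plxnb1 (r = 0.94), Sox4 (r = 0.93) and Ear-ps2 (r = 0.92). Adhfe1 was the only gene of these 15 with an adjusted p under 0.05 in limma, with a rise of 0.19 (adjusted p = 0.0206). These are the highest of 17168 values each, and are a description.

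The rest of the cascade was examined in 55 further complement genes, all of which are in the table. Of these, 10 were constant in all mice, among them Cfd, C9 and Mbl2, and 39 were kept for testing. In limma 2 of the 39, or 5.13%, were higher with an adjusted p under 0.05, and 0 were lower. An unadjusted p under 0.05 was found in 5 of the 39, against 16.7% of all genes. The share among all genes was 4.25%, so the wider list was called about as often as genes in general. Its median difference was 0.029, with 23 genes higher and 16 lower.

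The called genes were Cd93 and Itgb2, from the 11 other receptors and binding proteins. Cd93, a membrane protein once described as a C1q receptor, ranged from -0.11 to 0.17 in filtered air (median -0.037) and from 0.18 to 0.70 after ozone (median 0.42). Its groups did not overlap, although ozone mouse 5 was only just above filtered-air mouse 5, and the rise was 0.44 (SE 0.084, limma adjusted p = 0.00852), with 0.31 in sort batch 1 and 0.58 in sort batch 2. Itgb2 encodes the beta chain that complement receptors 3 and 4 share, and ranged from -0.15 to 0.12 (median 0.0032) and from 0.13 to 0.26 (median 0.17). The groups in Itgb2 were separate by a narrow margin, and the rise was 0.19 (SE 0.046, limma adjusted p = 0.0319), with 0.25 and 0.13 in sort batches 1 and 2. Leaving out 1 mouse ended the Itgb2 call in 8 of 12 fits (adjusted p up to 0.0788), as did quantile normalization (0.16, limma adjusted p = 0.154). The alpha chains of these receptors and the second C5a receptor, named for their role after their values were seen, did not pass. The difference was -0.17 for Itgam (limma adjusted p = 0.523) and 0.051 for Itgax (adjusted p = 0.673) and -0.045 for C5ar2 (adjusted p = 0.827).

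In the remaining role groups 0 genes passed in limma, where 4.25% of all genes did. Fcna, which encodes a ficolin of the lectin pathway, had the smallest p of 10 recognition molecules and proteases, with a difference of 0.18 (adjusted p = 0.121). It passed without filtered-air mouse 4 (0.23, limma adjusted p = 0.0189) and with RNA integrity as a covariate (0.21, adjusted p = 0.0157). That mouse had the lowest RNA integrity number, 8.9, and the highest filtered-air level of the monocyte (0.32), neutrophil (0.26), lymphocyte (0.32) and epithelial (0.27) lists, whose part in these values was not tested. C4b led the 3 genes of C2 and C4, with 0.24 (limma adjusted p = 0.605), and its groups were widened by filtered-air mouse 4 at 0.93, without which the difference was 0.44 (adjusted p = 0.0215). Without filtered-air mouse 6, the lowest, it was 0.13 (adjusted p = 0.800). The 4 terminal pathway genes kept differed by 0.029 to 0.077, and C6 had the smallest p, with 0.030 (limma adjusted p = 0.806). Serping1, which encodes the C1 inhibitor, led the 5 soluble regulators with -0.17 (95% interval -0.34 to 0.0016, limma adjusted p = 0.304). Susd4 led the 6 membrane regulators with -0.090 (limma adjusted p = 0.350).

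**Figure D5:**
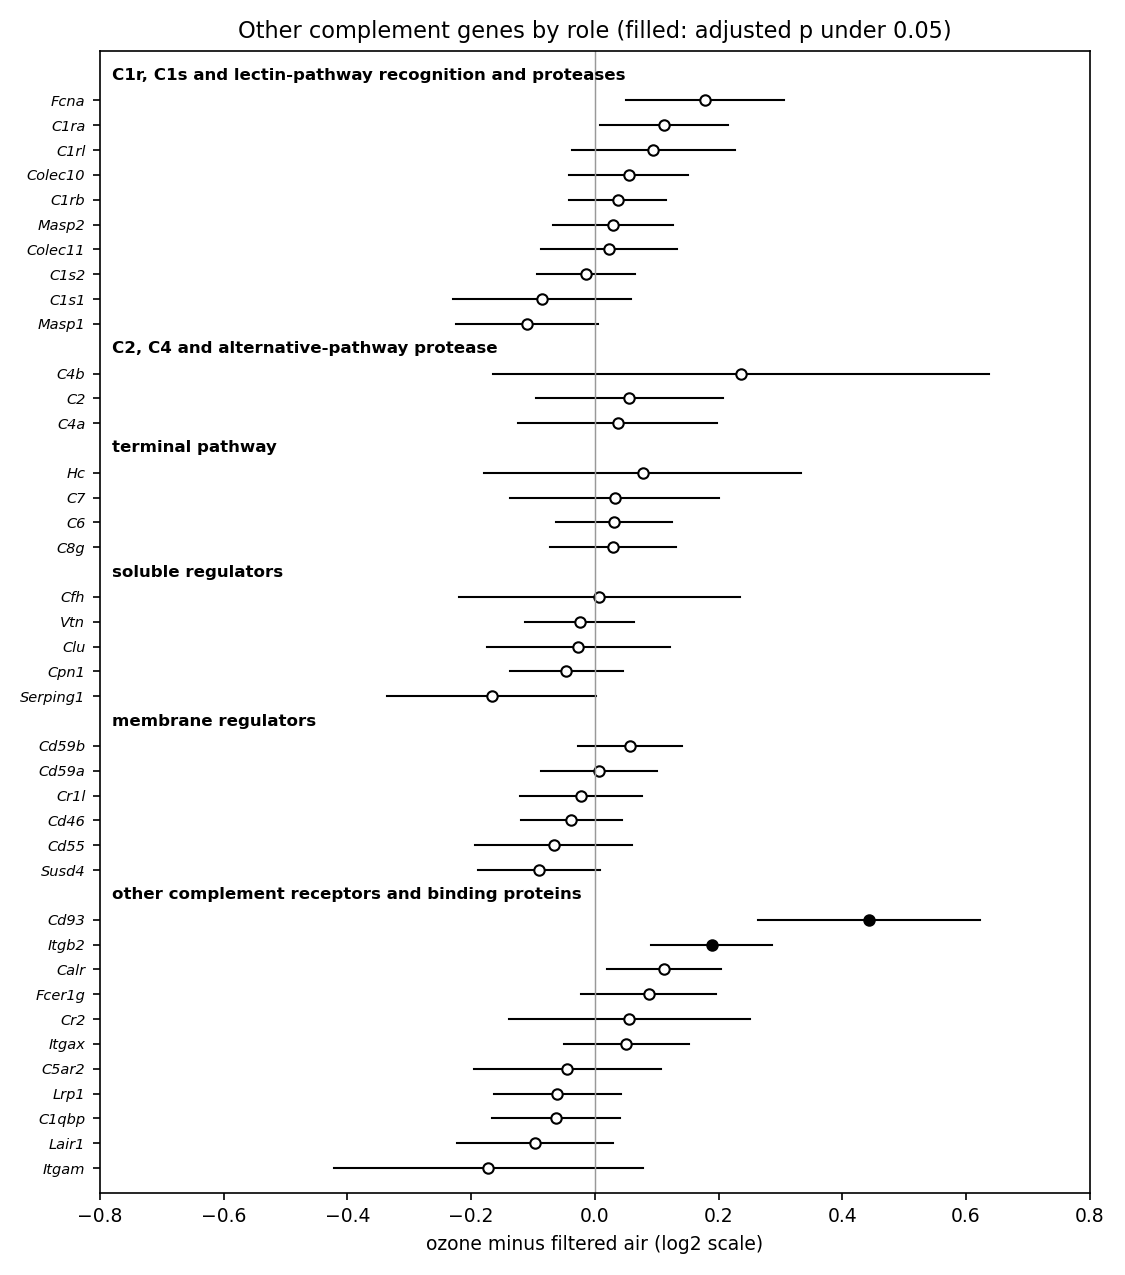
Ozone minus filtered-air difference (x axis, log2 scale) of the 39 other complement genes kept, by role on the y axis, with 95% intervals from limma (n = 6 mice per group). Filled circles, with an adjusted p under 0.05, are Cd93 at 0.44 and Itgb2 at 0.19, and intervals of most other genes include 0.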

How the data were processed

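RNA-seq of sorted alveolar macrophages from 6 ozone and 6 filtered-air mice was analysed from the authors' deposited table. Per the submitters' processing notes, cutadapt, STAR 2.7.7a, Salmon 1.5.2, DESeq2 1.26.0, limma 3.42.2 and R 3.6.0 were used with the mm10 build. The annotation and the treatment of multi-mapping reads are not given in the sources used here. Values are deposited on a log2 scale, variance-stabilized and batch-corrected, per the file's name and the values. The mean of the filtered-air mice is 0 in every gene. All 12 columns matched a sample title and 0 were unmatched.

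Of 55291 genes, 25444 were not constant. Genes were kept where at least 6 of 12 mice lay above the value shared by the lowest mice of a sort batch (within 1e-06), which left 19633. Ozone was compared with filtered air in limma 3.58.1 (R 4.3.3), with sort batch as a covariate and no variance trend. P-values were adjusted over all genes by Benjamini-Hochberg, with a threshold of 0.05. Intervals cover 95%. Residuals are from the group and batch means. The fit was tested on simulated data. Replicates are separate mice, per the mouse identifiers in the labels.

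The text names all 9 members, other complement genes that were called or had the smallest p in their role list, the 3 genes with the highest residual correlation to each member, and list markers beside a result. C2, C4a, Itgam, Itgax, C5ar2, Sftpc, Cx3cr1, Ms4a7, Flt3, Clec9a and Cd4 lie outside this rule or were picked after their values were seen. Members and lists were chosen with earlier results of these data known. Gene coordinates are from GENCODE M21 (GRCm38, the same assembly as mm10). Alternatives were no filter, a stricter filter, no batch term, a variance trend, quantile normalization, RNA integrity as a covariate, a replicate block, single batches and each mouse left out.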

Additional observations from a re-analysis of the deposited data

Results flagged for a closer look

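Of 18 combinations of a member and a group, 2 held a mouse far from the rest by Dixon's ratio of gap to range at its 95% critical value, where chance gives about 1 in 20. Ozone mouse 4 had a C3 value of 1.09 (ratio 0.733). The same mouse was the highest ozone mouse in Cfb, at 0.69, and in C3ar1, at 0.22, and the lowest in C5ar1, at -0.15. Without it the C3 rise was 0.54 (limma adjusted p = 0.000453). Its RNA integrity number was 9.6. Ozone mouse 1 had a Vsig4 value of -0.095 (ratio 0.635), as the lowest of its group, and was also the lowest ozone mouse in C1qc and C3ar1. Without it the Vsig4 difference was 0.040 (limma adjusted p = 0.663), still short of the threshold, and without 1 of the other mice it went as low as 0.0036 (without ozone mouse 3).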

How the results depend on the processing

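The C3 rise kept its call in limma under each setting that used all 12 mice and in all 12 fits without 1 mouse (0.54 to 0.69). Among the settings with all 12 mice its limma adjusted p was highest with a variance trend, at 0.0445, near the threshold. In sort batches 1 and 2 alone, with 3 mice against 3, it was 0.73 and 0.56 and short of the threshold, as was Cfp with 0.14 and 0.19. In those batches 0 of the 9 members were called in either, with 90 genes and 0 genes called in the whole table against 834. Quantile normalization gave 171 genes and 1 member, with Cfp at 0.14 and short of the threshold. Without single mice 538 to 751 genes were called, the lowest without filtered-air mouse 1 (522 shared with the 834), and 1 to 2 members. Cfp ranged from 0.15 to 0.18 in these fits. Among the 9 members and the 7 other complement genes rerun under each setting, signs changed in C5ar1, Cfb, Vsig4 and C4b, all uncalled. C5ar1 was -0.056 in batch 1 and -0.0086 to 0.089 without single mice. In batch 2, Cfb was -0.098, Vsig4 -0.012 and C4b -0.0030. Replicate numbers occur in both groups but mark different animals, and for that reason they were not taken as pairs. Residuals of same-numbered mice correlated above 0.1 in 4 of 6 pairs (-0.0026 to 0.28), and 3 of 6 ozone mice were most like their own number. These values do not settle whether same-numbered mice share a part of their variation. In each group the numbers follow the order of the mouse identifiers, so a block by number and a trend with identifier cannot be fully told apart. With the replicate block, C1qb (0.26, adjusted p = 0.00834) and C1qc (0.21, adjusted p = 0.0108) passed, Cfp (0.17, adjusted p = 0.0542) did not, and the batch interaction gave 1 gene. The cause was not tested.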

Other observations

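The labels give each mouse an identifier, from 8029 to 8046, and the C1q chains varied with it. This was looked for after the values of the members had been seen. Over 12 mice, residuals correlated with the identifier with Pearson's r = 0.75 and Spearman's rho = 0.69 for C1qa, 0.79 and 0.75 for C1qb, 0.81 and 0.76 for C1qc, and 0.69 and 0.65 for C3ar1. Without the 2 mice farthest from the median identifier, r was 0.66, 0.75, 0.69 and 0.42. Over all 12 mice r was 0.35, -0.13, -0.037 and -0.26 for C3, Cfb, Cfp and C5ar1, and 0.30, -0.44, -0.16 and -0.23 without the 2 farthest mice. For Vsig4 it was 0.54 (rho = 0.34), and -0.025 without the 2 farthest mice. The labels do not say whether identifiers mark a litter, a cage or a delivery. With the identifier as a further covariate, chosen after seeing the data, the differences were 0.19 for C1qa, 0.225 for C1qb and 0.17 for C1qc, with limma adjusted p-values of 0.315, 0.115 and 0.266, and the standard error of C1qa was 0.092 in place of 0.13. C3 and Cfp kept their calls.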
